A study of Rattus norvegicus with 300 samples.

Results

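The potassium channel genes of the rat brain were followed across 10 brain regions and 6 treatments. Genes were taken by symbol: of 90 symbols in the count table that start with Kcn (1 further symbol is left out by the rule), the 79 whose mean reached 1 count per 1000000 (CPM) in at least 1 region over its 30 libraries were kept, out of 17337 genes in all. They fall into 20 subfamilies by the letters after Kcn. The largest are the inward rectifiers (Kcnj, 12 genes), the background channels (Kcnk, 11) and the ether-a-go-go family (Kcnh, 8). Of the 79, 62 reached 1 CPM in all 10 regions, whereas Kcnq1, Kcnj2 and Kcnmb1 reached it in 1 region only. The 11 symbols left out ran up to 0.905 CPM, for Kcne4, and 0.652 CPM, for Kcne3, in their highest region.

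Potassium channels let potassium leave or enter cells and thereby set the resting potential, the shape of the action potential and the rate of firing. Voltage-gated channels are built from 4 pore-forming subunits of the Kcna to Kcnd, Kcnh or Kcnq groups. Auxiliary subunits (Kcnab, Kcne, Kcnip, Kcnmb) and electrically silent subunits (Kcnf, Kcng, Kcns, Kcnv) change where and how those pores open. Inward rectifiers include the channels that serotonin, dopamine and noradrenaline receptors open through G proteins (Kcnj3, Kcnj5, Kcnj6, Kcnj9), and Kcnj10 and Kcnj16 take up potassium in glia. Background channels (Kcnk) leak at rest, and calcium-activated channels (Kcnma, Kcnn) follow the calcium that enters during firing.

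Gene counts came from 300 RNA libraries of punched tissue, 5 for each of 60 groups of region and treatment, from male Long Evans rats aged 60 days whose drinking water carried the treatment over 3 weeks. The Control group had plain water, and the Maltodextrin group had the carrier sugar at 10 g/L. FT rats took 13 mg/kg/day, Bupropion rats 15 mg/kg/day and Desipramine rats 7.5 mg/kg/day of their antidepressant, and Probiotics rats a bacterial mixture. FT is not spelled out in the labels; fluoxetine, a serotonin reuptake blocker, is the protocol's drug that no other group name takes. Bupropion and desipramine block the reuptake of noradrenaline, and bupropion also that of dopamine. The regions keep their label names: Raphe, LConly, mPOA, NACShell, BLA, dorDG, venDG, CGC, PLC and ILC. Punches were pooled, and how many rats stand behind a replicate is not stated in the labels, so p-values measure the spread between replicates, which may be partly technical. No batch is labelled, and a batch shared by the 5 replicates of a treatment cannot be told apart from the treatment. In tissue samples such as these, fewer cells of a type and less RNA per cell cannot be told apart.

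Libraries held 198260 to 18310687 counts (median 9232563), and 269 of the 300 were closest to the mean profile of their own region. Of the libraries labelled ILC in the FT, Bupropion and Probiotics groups, 0 of 5 in each were closest to ILC. Closest to their own region were also 0 of 5 in LConly FT, 2 of 5 in dorDG FT and 3 of 5 in dorDG Probiotics. In PLC Maltodextrin, which enters the treatment comparisons, they were 3 of 5. Libraries labelled ILC and LConly in the FT group carried each other's markers. The summed noradrenaline markers (Dbh, Slc6a2, Th) stood at 485.9 CPM in ILC FT and 3.019 CPM in LConly FT, beside 124.1 to 474.5 CPM in the other LConly groups. The excitatory neuron markers were low in ILC Control (78.97 CPM against 376.3 to 469 CPM in the other ILC groups) and in dorDG Probiotics (56.36 CPM against 373.2 to 549.6 CPM). The choroid plexus markers reached 5788 to 15900 CPM in 5 venDG groups, 7992 CPM in BLA FT, 5781 CPM in dorDG FT, and 6240 and 17030 CPM in LConly Maltodextrin and Probiotics. Serotonin markers were 561.1 to 927.9 CPM in Raphe and at most 17.02 CPM in groups of other regions. Preoptic markers were high in NACShell FT, which enters the treatment comparisons, and their values stand below beside those of Kcnj16. The regional counts, and the values in LConly and dorDG, are therefore also given without the 4 groups ILC FT, LConly FT, ILC Control and dorDG Probiotics. Treatments are compared over CGC, mPOA, NACShell, PLC and Raphe.

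The channel genes differed widely in level between regions. Cortical CGC had the most members over 2-fold above the mean of the 9 other regions, and Raphe and mPOA the most members over 2-fold below it. The edgeR quasi-likelihood test over all 300 libraries called 16 of 79 members higher in CGC, against 3.77% of all genes tested, and 4 lower, against 3.67%. In Raphe it called 6 higher (all genes 5.58%) and 25 lower (7.73%), and in mPOA 10 higher (6.04%) and 20 lower (4.27%). The median difference over the members was 0.36 on the log2 scale in CGC, -0.41 in mPOA and -0.39 in Raphe, where all genes had medians of -0.02, 0.01 and -0.03. Counting only the 62 members at 1 CPM or more in every region gave 12 higher and 3 lower in CGC, 5 and 17 in mPOA, and 5 and 17 in Raphe, since a member could enter the list through the 1 region where it was high. The other regions had 12 members higher and 2 lower in BLA (all genes 4% and 1.14%), 12 and 10 in dorDG (3.94% and 5.43%), 6 and 1 in ILC (1.92% and 2.06%), and 10 and 8 in LConly (4.27% and 2.43%). NACShell had 11 higher and 5 lower (3.25% and 1.71%), PLC 11 and 5 (2.67% and 5.34%), and venDG 8 and 10 (3.4% and 3.47%). Among the 62 members these were 7 and 2 in BLA, 8 and 7 in dorDG, 5 and 1 in ILC, 7 and 6 in LConly, 6 and 4 in NACShell, 7 and 2 in PLC, and 4 and 7 in venDG. Shares of all genes at 1 CPM or more in every region were not computed. The counts over the 62 members are therefore not read as particular to them. Without the 4 groups named above, the members lower in LConly came to 20 and those lower in ILC to 9, with 13 and 8 higher. There were then 21 lower in mPOA and 23 lower in Raphe. CGC then had 18 higher and 2 lower, dorDG 13 and 12, and NACShell 10 and 3. The shares of all genes were not computed without the 4 groups, so these recounts are not read as particular to the members.

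**Figure D1:**
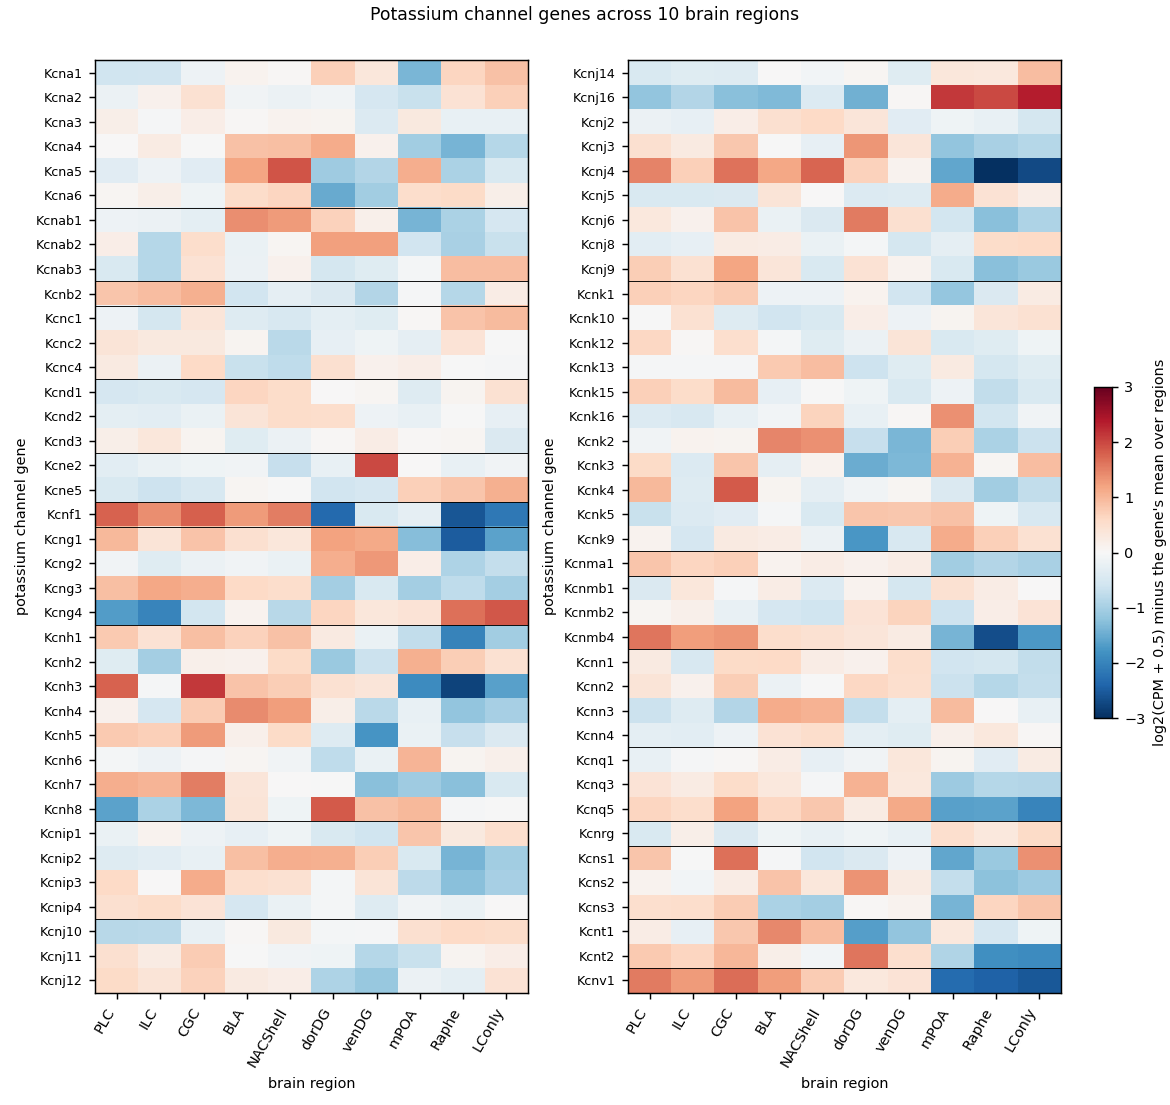
Level of 76 of the 79 potassium channel genes (vertical axis, grouped by subfamily) in each of the 10 regions (horizontal axis), as log2 of CPM plus 0.5, taken as the median of the 6 treatment means, minus the gene's mean over regions. Red is above and blue below that mean; the columns of Raphe and mPOA hold many blue cells, and those of CGC many red ones.

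Subfamilies did not share 1 regional pattern. The A-type pore genes Kcnd1, Kcnd2 and Kcnd3, which carry fast inactivating currents in dendrites, had no member over 2-fold from the other regions anywhere. Their summed level ran from 283.1 CPM in LConly to 458.2 CPM in dorDG, a ratio of 1.62. The Shaker genes (Kcna) summed to 242.8 CPM in venDG and 419.9 CPM in Raphe, a ratio of 1.73. By contrast, the M-current genes Kcnq ran from 106.3 CPM in LConly to 424.9 CPM in dorDG, and Kcnmb, the auxiliary subunits of the large-conductance calcium-activated channel, from 9.656 CPM in Raphe to 96.97 CPM in PLC. Summed over all members the level was 3320 CPM in CGC and 1816 CPM in mPOA. These sums are medians of the 6 treatment means, and a sum follows its most abundant member.

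The members that set Raphe and LConly apart from the cortex included Kcnj16 and Kcng4 on the high side and Kcnf1 and Kcnj4 on the low side. Kcnj16 is an acid-sensitive glial inward rectifier and Kcng4 a silent subunit, Kcnf1 is another silent subunit and Kcnj4 a strong inward rectifier. The sequences before their starts are shown because these 4 are examples of opposite regional patterns; they run 5′ to 3′ on the gene's strand, from RefSeq on GRCr8, with each CG dinucleotide in capitals.
Kcnf1, chr6:45693707-45693956, minus strand: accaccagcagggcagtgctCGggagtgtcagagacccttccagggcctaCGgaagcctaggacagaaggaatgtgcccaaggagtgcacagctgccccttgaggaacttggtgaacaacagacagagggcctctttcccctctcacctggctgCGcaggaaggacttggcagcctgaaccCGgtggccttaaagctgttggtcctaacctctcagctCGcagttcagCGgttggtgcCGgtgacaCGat
Kcnj4, chr7:112954548-112954797, minus strand: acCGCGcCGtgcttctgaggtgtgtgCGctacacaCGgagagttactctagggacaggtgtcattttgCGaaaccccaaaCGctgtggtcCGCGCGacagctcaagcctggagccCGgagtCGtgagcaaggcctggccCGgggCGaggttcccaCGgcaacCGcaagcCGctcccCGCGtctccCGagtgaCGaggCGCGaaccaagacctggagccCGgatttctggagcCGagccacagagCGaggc
Kcng4, chr19:64597889-64598138, minus strand: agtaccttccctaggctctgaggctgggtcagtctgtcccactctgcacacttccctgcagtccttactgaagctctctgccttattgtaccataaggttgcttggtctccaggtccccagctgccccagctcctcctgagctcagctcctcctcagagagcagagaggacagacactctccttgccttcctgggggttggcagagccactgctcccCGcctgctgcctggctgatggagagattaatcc
Kcnj16, chr10:96517074-96517323, plus strand: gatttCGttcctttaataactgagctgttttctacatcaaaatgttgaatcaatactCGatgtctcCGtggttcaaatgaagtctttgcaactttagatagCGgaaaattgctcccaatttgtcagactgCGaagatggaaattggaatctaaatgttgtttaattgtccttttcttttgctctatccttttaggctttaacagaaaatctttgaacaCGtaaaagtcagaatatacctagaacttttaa
Kcnj4 had 26 CG dinucleotides in this window and a GC content of 65.6%, Kcnf1 8 and 59.6%, Kcng4 1 and 58.4%, and Kcnj16 6 and 33.6%. RefSeq starts were matched for 52 of the 79 members, and their median GC content was 65.0%, beside 51.2% over all promoters; Kcnj16 was the lowest of the 52. The GC box GGGCGG stood on either strand in 27 of the 52 and in 30.5% of all 33469 promoters. The letters TATAAA (12.9% of all promoters) and the cyclic AMP element TGACGTCA (1.59%) stood in 0 of the 52. The 33469 promoters were not limited to genes of the count table or to 1 entry per gene. These values are therefore not read as particular to channel genes.

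Kcnj16 ran over its 30 libraries per region from 40.9 to 102 CPM in Raphe (median 47.3), from 37.8 to 176 CPM in mPOA (median 52.3) and from 4.01 to 131 CPM in LConly (median 56.7). In dorDG it ran from 1.64 to 7.88 CPM (median 3.72). Raphe and mPOA did not overlap with dorDG, while the 5 LConly libraries under 20 CPM were those of FT. Those libraries read 18.4, 5.42, 4.18, 5.3 and 4.01 CPM, and the ILC libraries of FT 101, 63.1, 59.4, 66.1 and 61.5 CPM, where the other ILC groups stayed at or under 10.2 CPM. The log2 difference from the other regions was 2.57 ± 0.10 (SE) in LConly, 2.37 ± 0.10 in Raphe and 2.19 ± 0.11 in mPOA. Without the 4 groups it was 2.90 in LConly. Kcng4 was high in LConly and Raphe too, with medians of 37.8 CPM in LConly and 31.2 CPM in Raphe against 2.55 CPM in PLC (log2 differences 2.37 ± 0.12, 2.02 ± 0.12 and -2.16 ± 0.19); the LConly value was 2.71 without the 4 groups.

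Kcnj4 ran from 22.8 to 48 CPM in CGC (median 35) and from 26.9 to 50.9 CPM in NACShell (median 40.4). In Raphe it ran from 0.102 to 4.1 CPM (median 0.767), below every CGC and NACShell library, at a log2 difference of -3.92 ± 0.24. Kcnf1 ran from 33 to 59.2 CPM in PLC (median 44.6) and from 0.966 to 4 CPM in Raphe (median 1.6), again without overlap, and its median in dorDG was 2.08 CPM. Its log2 difference was 2.07 ± 0.12 in PLC, -3.07 ± 0.20 in Raphe and -2.90 ± 0.21 in dorDG (-2.56 without the 4 groups). In LConly, Kcnf1 and Kcnj4 stood at -1.0 and -1.47 with all groups and at -2.65 and -3.14 without the 4. Low counts limit the low side: 3 counts in the shallowest of the libraries, from Desipramine BLA, already equal 15.1 CPM.

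**Figure D2:**
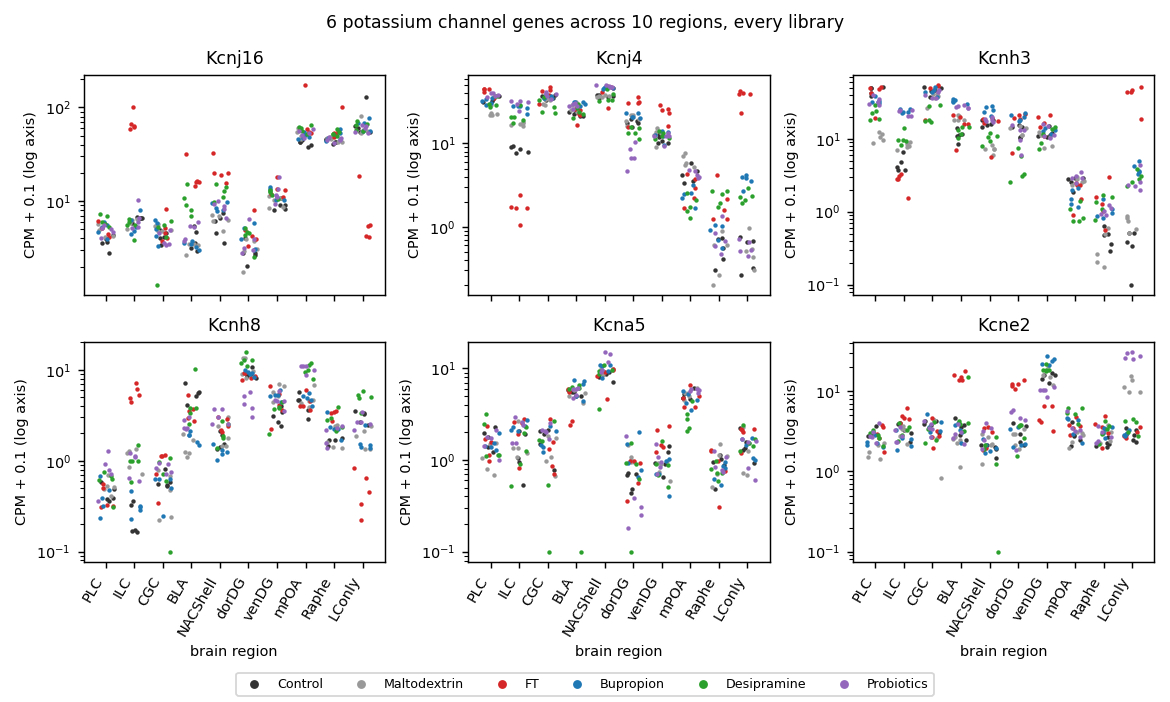
CPM plus 0.1 on a log axis (vertical) of 6 channel genes in every library, by region (horizontal) and coloured by treatment. Kcnj16 is high in LConly, mPOA and Raphe, and Kcnj4 and Kcnh3 are low in Raphe and mPOA; the FT libraries of ILC and LConly sit at each other's level.

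Among the voltage-gated pore genes, Kcnh3, a slow ether-a-go-go-like channel of forebrain neurons, had the widest cortical gradient of its subfamily. It ran from 16.6 to 55.3 CPM in CGC (median 41.1) and from 0.0725 to 2.91 CPM in Raphe (median 0.808), with log2 differences of 2.24 ± 0.13 and -3.83 ± 0.24. Kcnh8, of the same branch, ran the other way. It was highest in dorDG, at 2.96 to 15.8 CPM (median 8.97, log2 difference 2.23 ± 0.11, or 2.51 without the 4 groups), and lowest in PLC, at 0.132 to 1.17 CPM (median 0.399, -2.52 ± 0.19). Kcnh7, an ERG-type channel, was higher in CGC (1.53 ± 0.07) and PLC (1.39 ± 0.07) and lower in mPOA and Raphe (both -1.26 ± 0.09). Kcna5, a Shaker delayed rectifier, was highest in NACShell at 3.5 to 15.1 CPM (median 9.28) and lowest in dorDG at 0 to 1.94 CPM (median 0.736), without overlap. Of the Kcnc genes, whose channels allow fast firing, Kcnc1 was over 2-fold higher in LConly (1.15 ± 0.06, or 1.37 without the 4 groups) and Raphe (1.04 ± 0.06).

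The silent subunits form channels only together with Kcnb pores. Kcnv1 ran from 84.3 to 234 CPM in CGC (median 164) and from 5.76 to 19.7 CPM in Raphe (median 9.36). Kcns1 ran from 6.73 to 13.1 CPM in CGC and from 0 to 1.39 CPM in mPOA (medians 9.64 and 0.633). Both genes kept these regions apart without overlap. Kcns1 was high outside the cortex too, with a median of 7.5 CPM in LConly and a log2 difference of 1.84 ± 0.08 there, where Kcnv1 stood at -1.29 ± 0.17. Without the 4 groups these were 2.03 and -2.62. Kcng1 and Kcng2 were higher in both dentate gyrus samplings, dorDG (1.15 ± 0.09 and 1.42 ± 0.07, or 1.29 and 1.37 without the 4 groups) and venDG (1.32 ± 0.09 and 1.76 ± 0.07).

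Several members were high in both BLA and NACShell. Kcnk2, a mechanically and lipid-gated background channel, ran from 15.1 to 74.2 CPM in BLA (median 58.6), 37.6 to 77 CPM in NACShell (median 51) and 4.78 to 14.9 CPM in venDG (median 7.83). Kcnab1, a Shaker beta subunit that speeds inactivation, had medians of 420 CPM in BLA, 382 CPM in NACShell and 58.4 CPM in mPOA. Kcna5, Kcnh4 and Kcnn3 were over 2-fold higher in both regions as well. The summed striatal markers (Drd1, Drd2, Adora2a, Ppp1r1b) were 686.9 to 1334 CPM in BLA groups and 811.3 to 1323 CPM in NACShell groups, and at most 150.1 CPM in any other group. Their part in the shared pattern was not tested.

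The G-protein-gated inward rectifiers did not peak together. Kcnj6, the main pore in midbrain dopamine neurons, ran from 161 to 381 CPM in dorDG (median 285) and from 22.4 to 68.7 CPM in Raphe (median 39), without overlap (log2 differences 1.69 ± 0.05 and -1.23 ± 0.07). Its partner Kcnj3 was also highest in dorDG (1.36 ± 0.07); without the 4 groups the dorDG values were 1.85 for Kcnj6 and 1.55 for Kcnj3. In contrast, Kcnj9 was highest in CGC (1.18 ± 0.09), and Kcnj5 was highest in mPOA, with a median of 5.14 CPM and a log2 difference of 1.39 ± 0.08.

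Background channels split by region as well. Kcnk3 and Kcnk9, acid-sensitive channels, were low in dorDG (-2.27 ± 0.15 and -2.12 ± 0.15, or -2.29 and -1.75 without the 4 groups) and higher in mPOA (1.41 ± 0.09 and 1.17 ± 0.10). Kcnk16, an alkaline-activated channel, ran from 0.46 to 5.17 CPM in mPOA (median 1.88) and from 0 to 0.728 CPM in Raphe (median 0.0864). These low counts overlapped. Kcnk4, a mechanically gated channel, was highest in CGC at 6.21 to 16.1 CPM (median 13.2), above every Raphe library (0.248 to 1.96 CPM, median 1.37).

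Among the calcium- and sodium-activated genes, Kcnma1, the large-conductance pore, was lower in mPOA (-1.28 ± 0.07) and Raphe (-1.04 ± 0.07). Its neuronal auxiliary subunit Kcnmb4 ran from 71.5 to 125 CPM in PLC (median 94.3) and from 2.24 to 10.1 CPM in Raphe (median 4.58), without overlap. Of the sodium-activated pair, Kcnt1 was highest in BLA (1.47 ± 0.06) and lowest in dorDG (-1.94 ± 0.08), and Kcnt2 was highest in dorDG (1.60 ± 0.09, or 1.81 without the 4 groups).

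Kcne2, an auxiliary subunit best known from the choroid plexus and stomach, ran from 3.11 to 27.2 CPM in venDG (median 15.7) and from 0 to 3.86 CPM in NACShell (median 2.02). Its log2 difference in venDG was 2.20 ± 0.12. The group mean was lower in FT venDG (4.856 CPM) than in the other venDG groups (10 to 23.68 CPM), and it was 15.18 CPM in BLA FT, 12.1 CPM in dorDG FT, and 11.96 and 27.85 CPM in LConly Maltodextrin and Probiotics. These are the groups whose choroid plexus marker sums are given above: 741.6 CPM in venDG FT and 5781 CPM or more in the others. The part of that tissue in the Kcne2 level was not tested.

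Before the FT comparison, 1 set of libraries has to be named. FT replicate 1 was the highest or the lowest of the 5 FT replicates in at least 9 of 10 regions for 28 of the 79 members, 13 highest and 15 lowest, and each of the other 29 treatment replicates had 0 such members. The same count was not made over all genes, so it describes the replicate and is not read as particular to the channel genes. Kcnh3 lay lowest in all 10 regions at a median log2 ratio of -1.31 to the mean of the other 4 replicates, as did Kcnab2 (-1.24), Kcnt1 (-0.92) and Kcnc4 (-0.89). Kcnj16 (0.88), Kcnn2 (0.82), Kcnk15 (0.50) and Kcna1 (0.43) lay highest in all 10. Ratios used CPM plus 0.5. The libraries of FT replicate 1 held 3511756 to 4807308 counts (median 3864591, n = 10) and those of the other FT replicates 4917517 to 12340879 (median 8137496, n = 40). Their oligodendrocyte markers had a median log2 ratio of -0.40 (-0.56 to -0.28 over regions) and their neuron markers 0.02. The part of depth or cell makeup in these differences was not tested, and the FT values that moved most are also given without replicate 1.

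**Figure D3:**
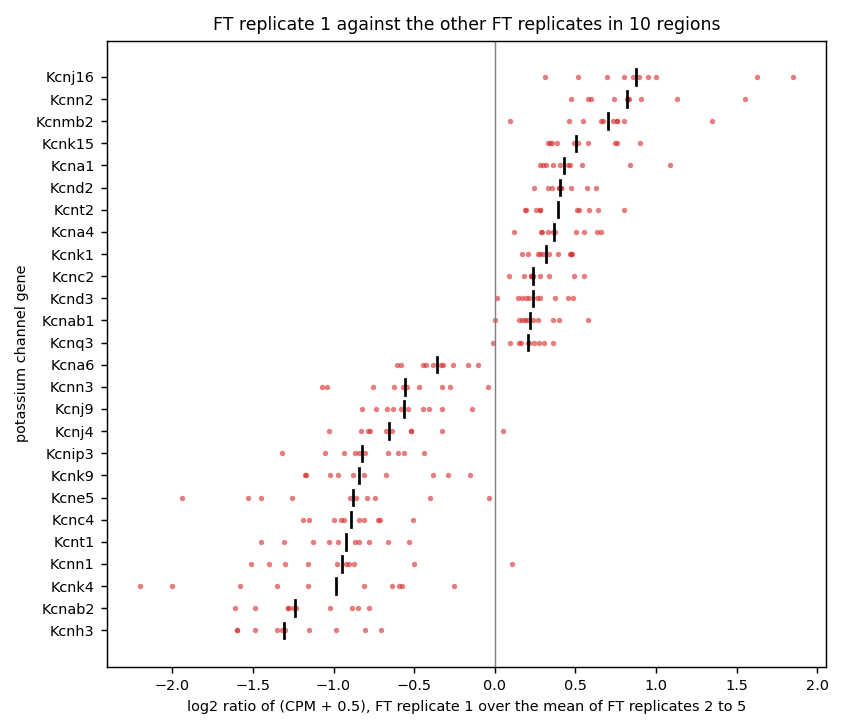
Log2 ratio of FT replicate 1 to the mean of FT replicates 2 to 5 (horizontal) for 26 of the 28 channel genes at an extreme in at least 9 of 10 regions (vertical), on CPM plus 0.5. Points are the 10 regions and the bar is their median; medians run from -1.31 for Kcnh3 to 0.88 for Kcnj16.

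Treatments were compared on counts summed over the 5 regions within each replicate, in 1 edgeR fit with p-values adjusted over all genes. FT changed 53 of the 79 members, 28 higher and 25 lower, where 58.7% of all genes were called, 28.3% higher and 30.4% lower. Without FT replicate 1 the counts were 29 and 26 (all genes 28.7% and 31.2%). Bupropion changed 35, 19 higher and 16 lower (all genes 50.5%, 24.3% and 26.2%), and Desipramine 59, 30 higher and 29 lower (66.4%, 30.9% and 35.5%). Maltodextrin against Control changed 49, 23 higher and 26 lower (53.3%, 26.1% and 27.2%). In these 4 comparisons the share of members called was near the share of all genes. Probiotics against Maltodextrin changed 44 members, 36 higher and 8 lower, where 51.5% of all genes were called, 25.7% higher and 25.8% lower. The median log2 change there was 0.19 over members and 0.01 over all genes. Of 5 excitatory markers, 4 rose and 1 fell in that comparison (median 0.42), and of 5 neuron markers 2 rose and 1 fell (0.09). Of 5 inhibitory markers 2 rose and 2 fell (-0.04). In Maltodextrin against Control, 1 excitatory marker rose and 3 fell (-0.49). The part of cell makeup in the Probiotics split was not tested.

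The split into higher and lower depended on scaling. With library totals in place of TMM factors, the median of all genes moved by 0.19 in FT and by 0.22 in Desipramine on the log2 scale, and by less than 0.1 in the other comparisons. The split of members then became 38 higher and 12 lower in FT (all genes 47.5% and 14.8%) and 43 and 20 in Desipramine (49.2% and 20.3%). It became 44 and 4 in Probiotics (35.6% and 13.3%), 28 and 23 in Maltodextrin (37.3% and 19.3%), and 16 and 16 in Bupropion (21.8% and 25.8%). Of the members called under TMM, 40 in FT, 31 in Bupropion, 50 in Desipramine, 40 in Probiotics and 46 in Maltodextrin were called in the same direction under both. Kcnip4 in Desipramine was called in opposite directions, at -0.10 and 0.11. Of the calls named below, those of Kcnab2 and Kcnk9 in FT, Kcnj6 in Bupropion, Kcnj8 in Desipramine, Kcnt1 in Desipramine, and Kcnc2 and Kcnk2 in Probiotics were not made with library totals. All changes below are relative to the TMM scale.

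Changes over 1.5-fold were few. FT had 4 members over 1.5-fold higher and 8 over 1.5-fold lower (all genes 5.1% and 5.6%), or 4 and 4 without FT replicate 1 (4.23% and 4.89%). Bupropion had 1 and 1 (2.31% and 3.67%), Desipramine 5 and 15 (5.09% and 12.3%), and Maltodextrin 0 and 11 (1.73% and 5.24%). Probiotics against Maltodextrin had 13 and 0 (7.49% and 1.18%). Control is shared by 4 comparisons and Maltodextrin by 2, so values of a gene across comparisons are set side by side and are not independent.

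**Figure D4:**
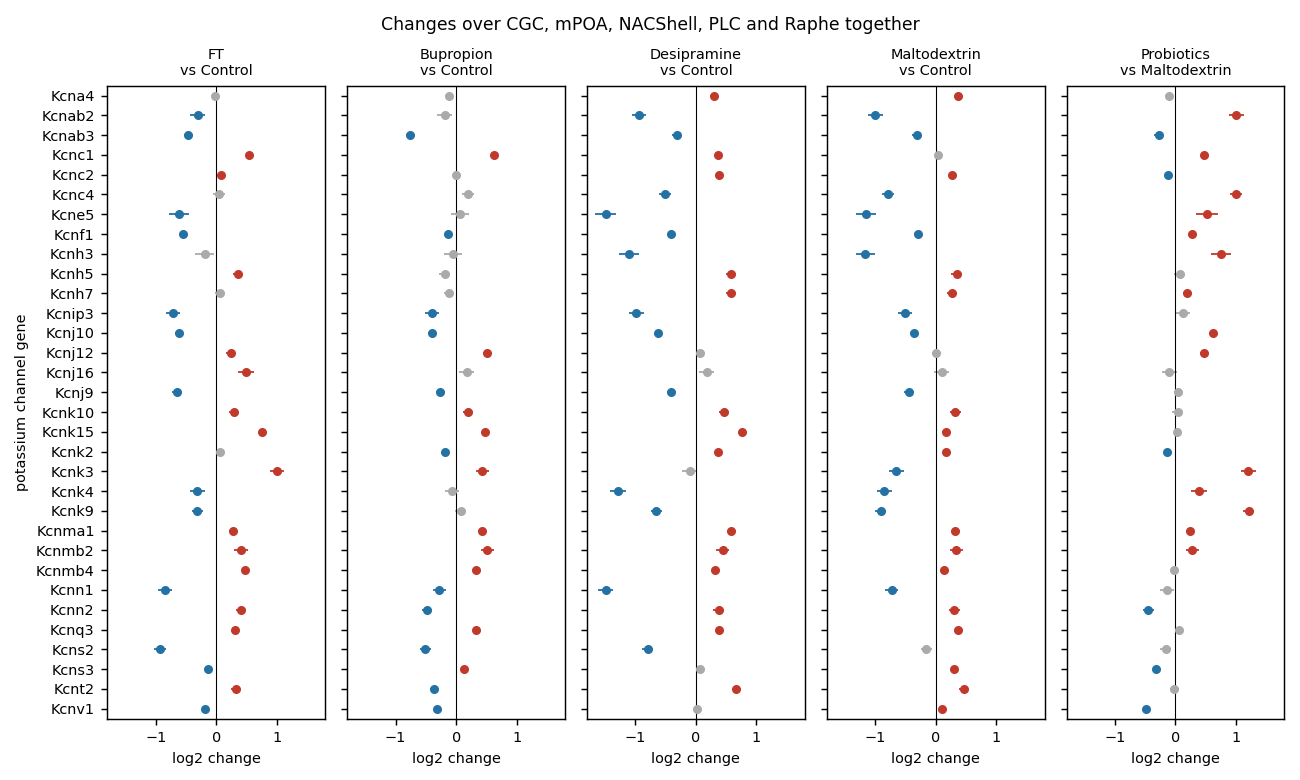
Log2 change with its standard error (horizontal) of 32 channel genes (vertical) in the 5 treatment comparisons over CGC, mPOA, NACShell, PLC and Raphe. Red marks genes called higher, blue genes called lower and grey genes not called; Kcnc1 is red in FT, Bupropion, Desipramine and Probiotics, and Kcnn1 blue in every comparison except Probiotics.

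Among the pore genes of fast-spiking neurons, Kcnc1 rose with all 3 drugs and with Probiotics. It stood at 46.6, 49.3, 50.6, 52.0 and 56.6 CPM in Control and 76.5, 78.4, 79.5, 76.2 and 82.4 CPM in Bupropion, without overlap (log2 change 0.62 ± 0.04, adjusted p = 3.97e-13). Its changes were 0.54 in FT, 0.36 in Desipramine and 0.47 in Probiotics, all called, and 0.04 in Maltodextrin (adjusted p = 0.384). Kcnc2 rose in Desipramine (0.38) and Maltodextrin (0.27) and fell in Probiotics (-0.13); its FT change of 0.08 was called, but was 0.05 without FT replicate 1 (adjusted p = 0.118). Kcnc4 stood at 28.9, 27.5, 28.4, 30.1 and 28.9 CPM in Maltodextrin and 60.1, 60.0, 63.5, 62.5 and 62.2 CPM in Probiotics (1.01 ± 0.10, adjusted p = 1.09e-09). It fell in Maltodextrin against Control (-0.79 ± 0.10), so Probiotics and Control lay on the same side of Maltodextrin.

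The A-type genes Kcnd2 and Kcnd3 were called higher in all 5 comparisons. Kcnd3 read 86.3, 87.0, 90.9, 89.9 and 87.2 CPM in Control, 150.9, 121.4, 128.8, 123.5 and 125 CPM in FT and 117.9, 117.3, 113.1, 111.4 and 111.2 CPM in Bupropion. No FT or Bupropion replicate reached down to Control. Log2 changes of Kcnd3 were 0.36 in FT, 0.40 in Bupropion, 0.33 in Desipramine, 0.10 in Probiotics and 0.16 in Maltodextrin, and those of Kcnd2 0.47, 0.21, 0.42, 0.15 and 0.21. Of their calcium-binding partners, Kcnip3, which also acts as a transcription factor, fell in FT (-0.72 ± 0.12, or -0.58 without FT replicate 1), Bupropion (-0.40), Desipramine (-0.98 ± 0.12) and Maltodextrin (-0.51). It stood at 28.1 to 30.8 CPM in Control, at 14.2, 16.5, 17.1, 19.3 and 21.0 CPM in Desipramine, and at 10.7 CPM in FT replicate 1 against 21.4 to 22.2 CPM in the other FT replicates. The Bupropion change of Kcnip3 was 0.00 over all 10 regions (adjusted p = 0.981) and -0.14 with Control and Maltodextrin pooled (adjusted p = 0.224). Kcnip1 fell in FT (-0.29) and Maltodextrin (-0.20) and rose in Bupropion (0.17) and Probiotics (0.20).

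Among the delayed rectifier genes and their silent partners, Kcnb2 rose in FT (0.34), Desipramine (0.37), Maltodextrin (0.21) and Probiotics (0.35). Silent Kcns2 stood at 5.19 to 5.73 CPM in Control and at 2.52, 3.25, 3.25, 3.21 and 3.19 CPM in FT, without overlap (-0.94 ± 0.10, adjusted p = 2.22e-09; -0.88 without FT replicate 1). It fell in Desipramine (-0.80) and Bupropion (-0.51) too, the latter at -0.16 over all 10 regions (adjusted p = 0.0592). Kcnv1 fell in Probiotics, from 99.5 to 105.3 CPM in Maltodextrin to 72.6 to 79.1 CPM (-0.48 ± 0.03, adjusted p = 7.81e-13), and in Bupropion (-0.32). Kcng1 fell in Maltodextrin (-0.63) and rose in Probiotics (0.72).

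Kcnab2, a Shaker beta subunit with an aldo-keto reductase fold, differed between Maltodextrin and the groups on either side of it. It stood at 63.4, 69.9, 71.2, 68.6 and 69.1 CPM in Control, 37.3, 36.1, 39.5, 38.9 and 37.4 CPM in Maltodextrin and 77.1, 75.9, 79.8, 76.7 and 72.3 CPM in Probiotics. The groups did not overlap. The log2 change was -1.0 ± 0.12 in Maltodextrin (adjusted p = 1.16e-07), 1.01 ± 0.12 in Probiotics (adjusted p = 5.35e-08) and -0.94 ± 0.12 in Desipramine. When 8 regions were taken, without ILC and LConly, the Probiotics change was 0.18 (adjusted p = 0.196). That set holds dorDG, where Kcnab2 averaged 124.5 CPM in Maltodextrin and 21.13 CPM in Probiotics, the group with the low excitatory markers. The part of that group in the value over 8 regions was not tested. In FT, Kcnab2 read 31.1 CPM in replicate 1 and 65.4 to 74.6 CPM in the others (-0.31, or -0.14 without replicate 1). Without that replicate Kcnab2 was called higher in CGC (0.26) and lower in PLC (-0.41) and mPOA (-0.54). It was not called in NACShell (-0.03) and Raphe (0.11). Kcnab3 fell in Bupropion, from 10.6 to 11.1 CPM in Control to 6.04 to 7.60 CPM, without overlap (-0.76 ± 0.07, adjusted p = 1.22e-09).

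**Figure D5:**
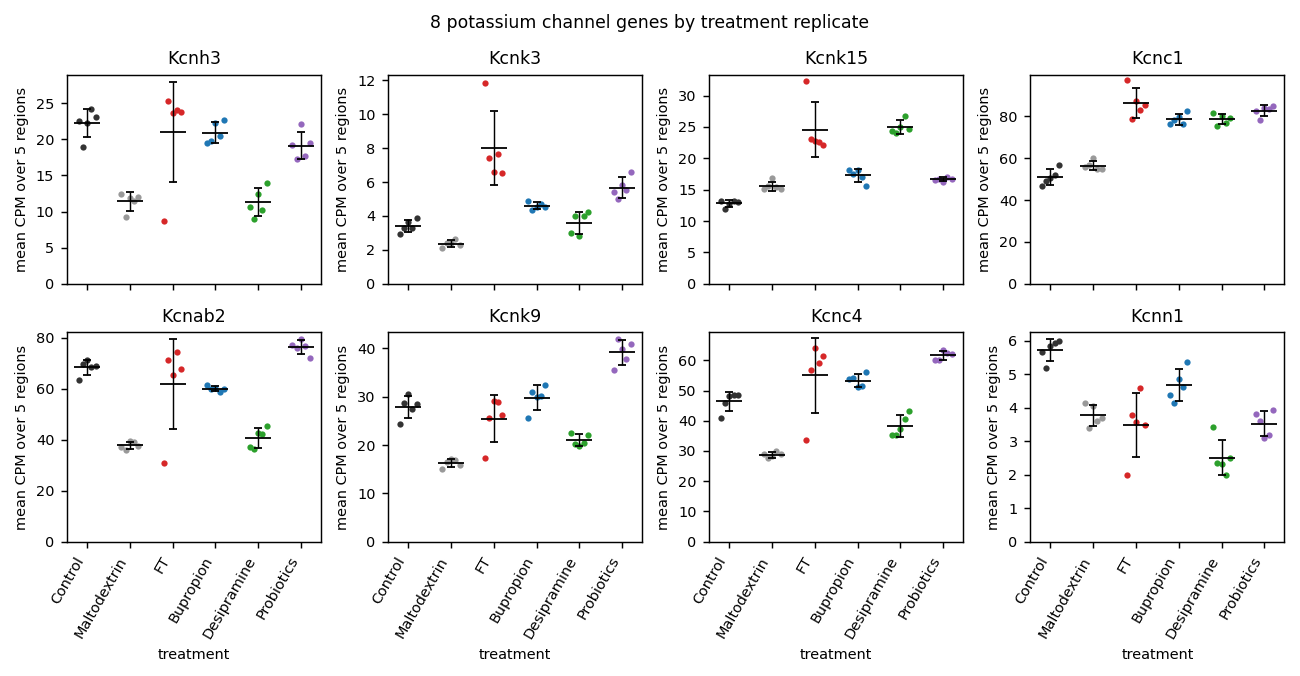
Mean CPM over the 5 regions (vertical) of 8 channel genes in each treatment replicate, by treatment (horizontal); points are the 5 replicates and bars the mean with its SD. Kcnk3 is highest in FT and Probiotics, and Kcnab2, Kcnk9 and Kcnc4 have their lowest group means in Maltodextrin.

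Of the acid-sensitive background channels, Kcnk3 read 2.93, 3.26, 3.67, 3.31 and 3.87 CPM in Control and 11.9, 7.44, 6.61, 7.65 and 6.54 CPM in FT, without overlap (1.00 ± 0.11, adjusted p = 5.8e-09; 0.87 without FT replicate 1). It read 2.12, 2.41, 2.41, 2.65 and 2.27 CPM in Maltodextrin and 5.44, 4.98, 5.85, 5.51 and 6.61 CPM in Probiotics (1.2 ± 0.12, adjusted p = 1.63e-09). Maltodextrin lay below Control (-0.66 ± 0.12, adjusted p = 6.49e-05). Kcnk9 followed in Probiotics, with 35.5, 42.0, 39.95, 37.8 and 40.9 CPM against 15.0, 16.6, 17.0, 17.0 and 15.9 CPM in Maltodextrin (1.21 ± 0.09, adjusted p = 4.1e-12), and in Maltodextrin against Control (-0.91 ± 0.09). In FT and Desipramine Kcnk9 fell (-0.31, or -0.20 without FT replicate 1, and -0.66) where Kcnk3 was 1.00 and -0.11. The FT fall of Kcnk9 was not shared by all regions. Without FT replicate 1 it was called lower in mPOA (-0.55) and higher in NACShell (0.44, adjusted p = 0.00359), where the FT libraries carried preoptic markers. Kcnk9 was not called in that setting in CGC (-0.29), PLC (-0.15) and Raphe (-0.04).

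Kcnk15, a close relative of Kcnk3, rose with all 3 drugs. It read 13.2, 11.98, 12.7, 13.2 and 13.0 CPM in Control, 32.3, 23.1, 22.8, 22.6 and 22.1 CPM in FT and 24.4, 24.0, 24.9, 26.8 and 24.6 CPM in Desipramine. Every treated replicate lay above Control. Its log2 change was 0.76 ± 0.06 in FT (adjusted p = 3.68e-12; 0.67 without FT replicate 1), 0.77 ± 0.06 in Desipramine (adjusted p = 2.28e-12), 0.48 ± 0.06 in Bupropion and 0.17 in Maltodextrin, and 0.03 in Probiotics (adjusted p = 0.727). It was called higher in 5 of 5 single regions with each drug. The mechanically gated Kcnk4 fell in Desipramine (-1.29 ± 0.13, adjusted p = 6.75e-10) and Maltodextrin (-0.85 ± 0.12), with 5.96 to 6.78 CPM in Control, 2.66 to 3.69 CPM in Desipramine and 3.78 to 4.47 CPM in Maltodextrin. Kcnk2, of the same group, rose in Desipramine (0.37) and Maltodextrin (0.16) and fell in Bupropion (-0.18) and Probiotics (-0.13).

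Of the G-protein-gated inward rectifiers, Kcnj6 rose and Kcnj9 fell. Kcnj6 read 62.3, 66.4, 69.6, 71.3 and 66.9 CPM in Control and 112.6, 94.5, 106.9, 107.6 and 93.2 CPM in FT, without overlap. Its log2 change was 0.44 ± 0.04 in FT and in Desipramine (adjusted p = 4.77e-11 and 2.55e-11), 0.59 ± 0.04 in Probiotics (adjusted p = 1.91e-13) and 0.11 in Bupropion, and 0.02 in Maltodextrin (adjusted p = 0.68). In mPOA the Probiotics libraries read 90.6, 102, 97.5, 97.5 and 90.6 CPM against 38.8, 38.4, 36.7, 42.3 and 41.2 CPM in Maltodextrin (1.18 ± 0.07, adjusted p = 7.87e-15). Kcnj9 fell in FT (-0.65 ± 0.08, or -0.56 without FT replicate 1), Maltodextrin (-0.44), Desipramine (-0.41) and Bupropion (-0.26). It stood at 31.0 to 34.2 CPM in Control and at 16.5, 24.5, 22.8, 27.5 and 22.8 CPM in FT, without overlap. Kcnj3 rose in FT (0.17), Desipramine (0.30) and Probiotics (0.37), and Kcnj5 was not called in any of the 5 comparisons. In NACShell alone, without FT replicate 1, Kcnj3 fell in FT (-0.43, adjusted p = 0.000936). Without that replicate it was called higher in CGC (0.57) and mPOA (0.38) and not called in PLC (0.15) and Raphe (0.20). The NACShell libraries of FT carried preoptic markers, and their part in the Kcnj3 value was not tested.

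Kcnj10, the main potassium-buffering inward rectifier of astrocytes and oligodendrocytes, fell with FT (-0.62), Bupropion (-0.40), Desipramine (-0.62) and Maltodextrin (-0.36) and rose with Probiotics (0.62 ± 0.06, adjusted p = 1.68e-09). It read 15.1 to 16.4 CPM in Probiotics and 9.08, 9.36, 10.1, 10.2 and 11.2 CPM in Maltodextrin. The FT fall of Kcnj10 was not shared by all regions. Without FT replicate 1 its change was -1.05 in Raphe, -0.70 in mPOA and -0.57 in PLC, all called. It was -0.24 in NACShell (adjusted p = 0.132) and 0.49 in CGC (adjusted p = 0.0198). Oligodendrocyte markers fell in 5 of 5 genes with FT (median log2 change -0.99) and with Desipramine (-0.92). In the other comparisons 3 of 5 fell and 0 rose, with medians of -0.36 in Bupropion, -0.13 in Maltodextrin and -0.20 in Probiotics, where Kcnj10 rose. Of 5 astrocyte markers, 1 rose and 2 fell in FT, 2 and 1 in Bupropion, 3 and 2 in Desipramine, 2 and 2 in Maltodextrin, and 0 and 2 in Probiotics. The summed level of the oligodendrocyte markers was 119600 CPM in Raphe Control, 68250 CPM in Raphe FT and 61140 CPM in Raphe Desipramine. The part of these cells in the Kcnj10 values was not tested. Kcnj8, the vascular pore of ATP-sensitive channels, fell with FT (-0.49) and Desipramine (-0.43), and so did 5 of 6 vessel markers in each (median -0.34 and -0.39). Kcnj11, the neuronal pore of those channels, rose in Bupropion (0.29), FT (0.19) and Probiotics (0.37).

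The small-conductance calcium-activated genes divided. Kcnn1 read 5.67, 5.19, 5.85, 5.93 and 6.00 CPM in Control and 3.41, 2.36, 2.31, 2.0 and 2.50 CPM in Desipramine (-1.49 ± 0.12, adjusted p = 8.78e-12). Control lay above every Desipramine, FT and Maltodextrin replicate. Its change was -0.85 ± 0.11 in FT (-0.73 without FT replicate 1), -0.73 in Maltodextrin and -0.28 in Bupropion. Kcnn2 went up in FT (0.41, or 0.26 without FT replicate 1), Desipramine (0.38) and Maltodextrin (0.31) and down in Bupropion (-0.48) and Probiotics (-0.45). Bupropion replicates of Kcnn2 read 10.5, 10.9, 11.7, 10.5 and 9.74 CPM and Control 14.8, 14.7, 16.6, 14.2 and 15.2 CPM, without overlap. Over the 5 regions together, the large-conductance pore Kcnma1 was called higher in all 5 comparisons, most in Desipramine (0.59 ± 0.07, adjusted p = 1.77e-08), where it read 181.5 to 196.7 CPM against 101.9 to 117.2 CPM in Control. In NACShell alone, without FT replicate 1, the FT change of Kcnma1 was -0.26 (adjusted p = 0.000476). It was 0.23 in CGC, 0.32 in mPOA, 0.35 in PLC and 0.56 in Raphe, all called. The NACShell libraries of FT carried preoptic markers, as given below with Kcnj16, and the part of such tissue in the Kcnma1 value was not tested. Kcnmb4, the partner of Kcnma1, rose with FT (0.47), Bupropion (0.33) and Desipramine (0.31).

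Among the M-current and ether-a-go-go genes, Kcnq3 rose in FT (0.30), Bupropion (0.33), Desipramine (0.37) and Maltodextrin (0.37). Kcnh3 fell in Desipramine (-1.11 ± 0.16) and Maltodextrin (-1.16 ± 0.16) and rose in Probiotics (0.76 ± 0.16). It read 19.0 to 24.2 CPM in Control, 9.23 to 12.5 CPM in Maltodextrin, 9.03 to 13.9 CPM in Desipramine and 17.2 to 22.1 CPM in Probiotics, so Control overlapped with neither Maltodextrin nor Desipramine. FT replicate 1 read 8.71 CPM and the other FT replicates 23.6 to 25.2 CPM. Of the sodium-activated genes, Kcnt2 rose in FT (0.32), Desipramine (0.66 ± 0.07) and Maltodextrin (0.46) and fell in Bupropion (-0.36), and Kcnt1 fell in Bupropion (-0.29) and Desipramine (-0.40) and rose in Probiotics (0.28). In NACShell alone, without FT replicate 1, Kcnt2 fell in FT (-0.47, adjusted p = 0.00353). Kcnt2 rose with FT in CGC (0.44), PLC (0.39), Raphe (0.47) and mPOA (0.34), all without FT replicate 1. The part of the preoptic markers in NACShell FT in its fall there was not tested.

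Calls within single regions were read against all genes of the same region. The filter left 71 members in CGC, 74 in mPOA, 75 in NACShell and 73 in both PLC and Raphe; shares of all genes called higher and lower stand in parentheses. FT against Control called 23 members higher and 14 lower in CGC (22.5% and 20.5%), 21 and 17 in mPOA (25.5% and 23.3%) and 21 and 19 in NACShell (25.5% and 21.1%). It called 19 and 14 in PLC (21.4% and 21.3%) and 26 and 15 in Raphe (31.1% and 30.1%). Bupropion against Control called 20 members higher and 21 lower in CGC (24.5% and 27.1%), 10 and 14 in mPOA (20.7% and 18.6%) and 24 and 12 in NACShell (24.4% and 23.6%). It called 16 and 18 in PLC (22.8% and 24.3%) and 22 and 8 in Raphe (21.5% and 22.2%). Desipramine against Control called 25 members higher and 18 lower in CGC (26.8% and 30.8%), 32 and 24 in mPOA (32.2% and 32.5%) and 17 and 16 in NACShell (20% and 21.3%). It called 23 and 21 in PLC (29.2% and 30.5%) and 26 and 21 in Raphe (28.8% and 31.1%). The members called by a drug thus split to both sides in every region. Probiotics against Maltodextrin called 26 members higher and 5 lower in CGC (16% and 16.1%), 23 and 8 in mPOA (17.7% and 17.3%) and 20 and 7 in NACShell (20.4% and 17.9%). It called 33 and 5 in PLC (27.4% and 19.6%) and 28 and 5 in Raphe (19.6% and 21.6%). Here higher calls outnumbered lower calls among members in each of the 5 regions, while all genes split nearly evenly or less unevenly. Maltodextrin against Control called 18 members higher and 14 lower in CGC (23.5% and 22.7%), 15 and 16 in mPOA (18.9% and 19%) and 13 and 21 in NACShell (21.6% and 24.8%). It called 14 and 28 in PLC (22.8% and 26.3%) and 19 and 15 in Raphe (15.4% and 18%).

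These splits too moved with the scaling, and those whose share of higher calls moved by over 10 percentage points with library totals are given here. No shares of all genes under library totals stand beside these single-region counts, so they are not read as shifts of the members. Over the 5 regions together all genes moved as well, to 47.5% higher and 14.8% lower in FT. FT then called 31 higher and 6 lower in CGC, 30 and 15 in NACShell, 31 and 9 in PLC, and 47 and 7 in Raphe. Bupropion called 13 and 29 in CGC, 12 and 30 in PLC, and 35 and 4 in Raphe. Desipramine called 30 and 11 in CGC, 26 and 7 in NACShell, 31 and 18 in PLC, and 39 and 10 in Raphe. Probiotics called 30 and 5 in mPOA and 48 and 1 in PLC, and Maltodextrin 30 and 3 in CGC, 19 and 10 in mPOA, and 26 and 11 in NACShell. Single libraries moved some small counts: the 14 lower in PLC with FT were 9 without Control replicate 5, and the 8 lower in mPOA with Probiotics were 5 without Probiotics replicate 2. The 5 lower in CGC with Probiotics were 2 or 3 without any 1 of Maltodextrin replicates 1, 3, 4 and 5 and Probiotics replicates 1, 2 and 3. The 5 lower in Raphe were 3 without any 1 of Maltodextrin replicates 2 and 3 and Probiotics replicates 1 and 5.

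The size of the changes differed between regions for most members. The test of that difference called 52 of 76 members in FT (all genes 66.7%), 58 of 78 in Bupropion (70.2%), 49 of 78 in Desipramine (62.8%), 41 of 78 in Probiotics (54.3%) and 51 of 79 in Maltodextrin (62.6%), shares near those of all genes. In PLC, Kcnh3 read 10.6, 11.4, 12.1, 8.68 and 9.66 CPM in Maltodextrin and 49.3, 38.1, 42.3, 49.6 and 51.6 CPM in Control (-2.05 ± 0.17, adjusted p = 6.15e-12). Kcnk4 read 1.76, 2.84, 3.29, 3.09 and 2.80 CPM against 11.4, 10.3, 13.6, 12.3 and 12.6 CPM (-2.06 ± 0.22, adjusted p = 3.06e-09). Neither pair overlapped. The excitatory markers of PLC were 412.4 CPM in Maltodextrin and 663.9 CPM in Control, of which Slc17a7 was 326 CPM in Maltodextrin and 563 CPM in Control, and their part was not tested.

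In Raphe, Kcnk3 read 10.1, 4.89, 3.998, 7.41 and 6.87 CPM in FT and 1.23, 1.198, 1.16, 1.29 and 1.72 CPM in Control, without overlap (1.91 ± 0.235, adjusted p = 1.51e-08; 1.78 without FT replicate 1). Kcnmb4 in Raphe read 9.43, 9.43, 10.1, 10.1 and 9.79 CPM in Desipramine and 3.20, 2.46, 2.24, 3.34 and 2.62 CPM in Control (1.53 ± 0.11, adjusted p = 2.44e-13). Kcnj4, whose Raphe levels given above are low, rose there by 1.99 in Desipramine. Low counts limit such values, and the Raphe levels of Kcnh3 given above are low too. Without FT replicate 1, the FT changes in Raphe were 1.83 ± 0.37 for Kcnh3, 1.76 ± 0.40 for Kcnj4 and 1.54 ± 0.35 for Kcnh4. Kcnf1 (0.09, adjusted p = 0.803) and Kcnv1 (0.25, adjusted p = 0.0548) were not called in that fit. Excitatory markers in Raphe were 136.1 CPM in Control, 210.4 CPM in FT and 211.2 CPM in Desipramine, and the oligodendrocyte sums given above moved the other way. The glutamate transporter Slc17a6 made up that difference (107, 178 and 184 CPM), while the cortical type Slc17a7 was 27.4, 27.2 and 23.7 CPM. In mPOA, Kcnmb4 read 18.1, 20.5, 21.0, 18.9 and 16.3 CPM in FT against 7.73, 5.75, 6.43, 7.38 and 6.70 CPM in Control (1.35 ± 0.11, adjusted p = 4.65e-12). There too the excitatory sum was higher in FT (246.7 CPM) than in Control (91.99 CPM). It rested on Slc17a6 (236 against 81.5 CPM), while Slc17a7 was 6.28 against 7.67 CPM and Tbr1 0.55 against 1.31 CPM. The part of cell makeup in these single-region changes was not tested.

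NACShell gave the largest change of Kcnj16. It read 32.9, 19.9, 19.0, 15.6 and 20.1 CPM in FT and 6.07, 3.45, 7.45, 6.56 and 4.47 CPM in Control, without overlap (1.76 ± 0.17, adjusted p = 7.64e-11; 1.61 without FT replicate 1). The preoptic markers (Oxt, Avp, Gal) summed to 235.7 CPM in those FT libraries, 5.371 CPM in Control and at most 9.562 CPM in the other NACShell groups. Kcnj16 is 1 of the genes over 2-fold higher in mPOA, and the part of such tissue in its change was not tested. Over the 5 regions Kcnj16 rose by 0.49 in FT, but by 0.21 without FT replicate 1 and 0.27 over all 10 regions (adjusted p = 0.0678); in replicate 1 it read 64.9 CPM against 25.9 to 28.2 CPM in the other replicates.

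Genes whose products work with these channels were taken as a list of 27, of which 23 were tested over the 5 regions. It was chosen by role with earlier results of these data known. FT called 9 higher and 9 lower, Bupropion 4 and 8, Desipramine 11 and 9, Probiotics 11 and 3, and Maltodextrin 8 and 9, beside the shares of all genes given above. Amigo1, a membrane partner of delayed rectifier channels, fell in FT (-0.84), Desipramine (-0.66), Bupropion (-0.63) and Maltodextrin (-0.47). Dpp6, a partner of the Kcnd channels, fell in FT (-0.35), Desipramine (-0.27), Bupropion (-0.15) and Maltodextrin (-0.28) and rose in Probiotics (0.24), while Kcnd2 and Kcnd3 rose in all 5. Hcn2, a hyperpolarisation-activated channel that opposes potassium currents and was among the known results, rose in FT (1.54), Desipramine (1.06), Bupropion (0.82), Maltodextrin (0.51) and Probiotics (0.47).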

How the data were processed

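The deposited table held raw read counts per gene symbol in 300 libraries. The submitters' processing notes name FastQC, STAR, HTSeq and the build rn6. No source used here gives their versions or says whether strand was used in counting, so reads of overlapping antisense genes cannot be told apart. Per the labels' protocols the authors made stranded total RNA libraries, read as 150 bp paired ends. All columns matched a labelled sample. The members and lists were chosen with earlier results of these data known.

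CPM were computed from library totals. Counts were fitted in edgeR (4.0.16, R 4.3.3) with TMM factors, the filterByExpr filter and quasi-likelihood tests, with Benjamini-Hochberg adjustment over all genes and a call at an adjusted p under 0.05. Treatments were fitted on the 30 treatment replicates, summed over 5 regions with a gene-wise offset for regional depth, and within each region on 30 libraries. Regional differences set each region against the mean of the 9 others over 300 libraries with the treatment replicate as a block, and needed a log2 difference over 1. Differences between regions were tested on 50 libraries. All 79 members passed the filters of the 5-region and regional fits, and 71 to 75 those of single regions. The table of members over 1.5-fold, the fits without FT replicate 1 and the scaling by library totals were added after seeing the data. Alternatives included DESeq2 (1.42.0), limma (3.58.1), other size factors, no filter, other sets of regions and controls, and leaving out each replicate. The tests were checked on simulated data.

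Genes to name were taken by rule: the 3 largest among members over 2-fold higher in each region, the 6 highest and 6 lowest changes over the 5 regions among called members with a mean of 1 CPM and the same sign in at least 4 regions, the 2 highest and 2 lowest per single region among called members with 1 CPM there, and a list by role. Kcng1 falls outside it and was chosen after its values were seen, as were the further regions given for members it names. Not every change picked by the rule is described above. Those left out include Kcnmb1 in mPOA with FT (-2.99) and Desipramine (-2.075), whose highest regional mean was 1.177 CPM. Kcne5 in Raphe with Desipramine (-1.68) and Kcnk16 in mPOA with FT (1.291) were left out too. No library was left out or relabelled, and no pair of libraries in a group was found to be a repeat (lowest chi-square per degree of freedom 1.36). Library depth ran from 198260 to 18310687 counts. Precision rests on the spread between replicates. Values of some genes are not reported here or drawn in the figures, but all members enter the counts.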

Additional observations from a re-analysis of the deposited data

Results flagged for a closer look

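Among the 198 groups of 5 treatment replicates checked for named genes, 16 had a replicate far from the others by Dixon's ratio, and chance alone gives about 1 in 20 groups. Of these, 13 were FT replicate 1. Low values there were 31.06 CPM for Kcnab2, 33.56 for Kcnc4, 0.665 for Kcne5, 8.711 for Kcnh3, 10.69 for Kcnip3, 2.908 for Kcnk4, 17.22 for Kcnk9 and 2.524 for Kcns2, each a mean CPM over the 5 regions. High values there were 64.88 CPM for Kcnj16, 32.34 for Kcnk15, 11.85 for Kcnk3, 4.493 for Kcnmb2 and 34.45 for Kcnn2. The other 3 were Kcna4 in Maltodextrin replicate 1 (37.65 CPM, highest, others 36.59 to 36.87), Kcnk15 in Maltodextrin replicate 3 (16.82 CPM, highest, others 15.08 to 15.57) and Kcns3 in Bupropion replicate 5 (10.76 CPM, lowest, others 12.44 to 13.11).

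For some members the change differed between the 5 regions by the test of that difference and was called higher in 1 or more regions and lower in 1 or more others. There were 20 such members of 76 tested in FT against Control (26.3%, beside 13.1% of all genes tested), 18 of 78 in Bupropion (23.1% beside 19.8%), 12 of 78 in Desipramine (15.4% beside 11.3%), 4 of 78 in Probiotics against Maltodextrin (5.13% beside 7.02%) and 14 of 79 in Maltodextrin against Control (17.7% beside 13.5%).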

How the results depend on the processing

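The 633 recomputed totals of members called, and members higher in a region, stayed within 1.5 times the reported count. Of 936 counts in 1 direction of treatment, 37 moved by over 1.5 times: 23 with library totals (over the 5 regions, FT lower from 25 to 12 and Probiotics lower from 8 to 4), 13 when 1 replicate was left out, as given in the report, and 1 with Control and Maltodextrin pooled (Bupropion higher from 19 to 29). Of the values of named genes, 2889 kept their direction and side of the threshold, 26 kept their direction but missed the threshold, and 1 turned: Kcnmb2 in Maltodextrin over all 10 regions (-0.039, adjusted p = 0.729). Kcnmb2 also missed it there with limma and equal weights of regions (0.20, adjusted p = 0.206), and in Bupropion over 10 regions (0.18, adjusted p = 0.0687). The cause was not tested. Groups with markers of other regions enter the sets of 8 and 10 regions.

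The labels do not say that a replicate number pairs samples, and the numbers were not taken as pairs: deviations of same-numbered replicates of different treatments had a median correlation of 0.0175 (-0.142 to 0.162 over 75 pairs, 4 over 0.1), and those of different-numbered ones -0.00557 (-0.223 to 0.176 over 300 pairs, 4 over 0.1). As a hint from the data only, 14 of 30 replicates correlated best with their own number. With the replicate block, Kcnk10 in CGC with Probiotics was -0.46 (adjusted p = 0.0554); it also missed the threshold with DESeq2 (adjusted p = 0.0604) and with no filter (adjusted p = 0.0553). In the shallowest library, from Desipramine BLA, 3 counts equal 15.1 CPM, which limits members at low levels there.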
